A study of Homo sapiens with 12 samples.

Results

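The genes described here are 10 members of the glycolytic pathway, namely the glucose transporter gene SLC2A1 (GLUT1) and the enzyme genes HK2, PFKP, ALDOA, TPI1, GAPDH, PGK1, ENO1, PKM and LDHA. They were chosen by symbol, and each was found as a single row in all 3 deposited expression tables, which list 16491, 18217 and 57909 rows. The data are 12 RNA-seq libraries of HCC70 and MDA-MB468, both lines of TNBC. TNBC is breast cancer without oestrogen receptor, progesterone receptor or HER2 amplification, and both lines are established cultures grown without stroma or immune cells. Each line was cultured for 24 h with vehicle, with 1.25 or 2.5 μM XY018 (an antagonist of the nuclear receptor RORγ), with 1.25 μM atorvastatin (ATV, a statin that blocks the cholesterol pathway enzyme HMG-CoA reductase), or with 1.25 μM of both compounds, which makes 5 conditions per line. GSK805, another RORγ antagonist, was given to MDA-MB468 alone, at 2.5 μM for 24 h beside a vehicle culture of its own. Each condition has 1 library per line and experiment, so no difference within a line has a replicate check or a test. The MDA-MB468 vehicles of the XY018 and GSK805 experiments are separate libraries. A fit that takes the lines as replicates of a treatment was not run.

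Glycolysis splits glucose into pyruvate in the cytosol and yields ATP and NADH. Cells take up glucose through transporters such as GLUT1, hexokinase and phosphofructokinase trap and commit it, and the later enzymes harvest energy from the resulting trioses. Many tumours turn pyruvate into lactate through LDHA even when oxygen is present, which restores the NAD+ that GAPDH needs. HIF-1 and MYC are well known transcriptional activators of these genes, and ACGTG is a short core sequence that HIF-1 recognizes.

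That core was searched on both strands, as ACGTG or its complement CACGT, in the RefSeq promoter windows of the 10 genes, from 250 bases before to 50 bases after the RefSeq start. It was present in 5 of the 10 windows, those of HK2, ALDOA, GAPDH, PGK1 and LDHA, and in 21.4% of 35116 windows of the same length. The letters CACGTG, an E-box that contains both forms of the core, stood in the windows of GAPDH and LDHA and in 7.26% of all windows. Stretches from these 5 genes are shown because their ratios under the antagonists differed, although all of them hold the same letters. Not every match is printed: HK2 has another core 229 bases before its start, and PGK1 has 3 matches in its window. A further LDHA core, 73 bases before its start, stands in lower case at the end of the second LDHA stretch. The matches are a description of the sequence and not of binding, and no match in a window says only that the letters are not in it. Capitals mark the core for which each stretch is shown, and each stretch is the plus strand of GRCh37, placed there by an exact match of the RefSeq sequence.
LDHA, chr11:18415914-18415943: gactcccagcgcACGTGgagcagtctgccg
LDHA, chr11:18416012-18416041: agcccgactcacACGTGggttcccgcacgt
PGK1, chrX:77359531-77359560: gcggcgtgccggACGTGacaaacggaagcc
PGK1, chrX:77359550-77359579: aaacggaagccgCACGTctcactagtaccc
GAPDH, chr12:6644338-6644367: ctctgcggggtcACGTGtcgcagaggagcc
ALDOA, chr16:30075410-30075439: ccttcccctccaCACGTcaacgattctatt
HK2, chr2:75061194-75061223: aatgggcgtgcgCACGTcactgatccggag
These cores begin 184 and 86 bases before the RefSeq start of the window in LDHA, 202 and 183 in PGK1, 80 in GAPDH, 178 in ALDOA and 48 in HK2. The RefSeq starts of ALDOA, GAPDH, PGK1 and LDHA lie inside the GENCODE gene spans given further on, so these distances do not count from the first base of those spans. The windows of SLC2A1, PFKP, TPI1, ENO1 and PKM held no match to ACGTG or CACGT, and other forms of the core were not searched.

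The authors' values are FPKM, a level corrected for the length of the transcript and for the size of the library. Read counts are not part of the tables. The depth, estimated from the spacing of the lowest FPKM values, was 9050000 to 9760000 fragments in the HCC70 libraries, 17700000 to 19400000 in the MDA-MB468 libraries with XY018 or ATV and their vehicle, and 8320000 and 8640000 in the GSK805 pair. Changes are log2 ratios of a treated library to its vehicle, with 0.1 FPKM added to both values, and a gene is counted as higher or lower when the ratio is at least 1.5-fold, or 0.585 on the log2 scale. Intervals in brackets are 95% Clopper-Pearson intervals that cover counting error only and leave out differences between cultures. The 3 tables were normalized separately, so levels from different tables cannot be compared directly. The exceptions, marked as such, are ALDOA, FBP1 and TXNIP and the GSK805 library set against the other MDA-MB468 vehicle. In bulk RNA, less RNA per cell and fewer cells of a kind cannot be told apart.

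The vehicle libraries carried epithelial transcripts and little ESR1 or PGR transcript. In the vehicle libraries EGFR stood at 47.9 FPKM in HCC70, 944 in MDA-MB468 and 617 in the MDA-MB468 vehicle of the GSK805 experiment, and KRT8 stood at 313, 918 and 967. The oestrogen receptor gene ESR1 was at 0.56, 0.48 and 1.77 FPKM, and PGR was listed at 0 in both MDA-MB468 vehicles. The T-cell gene CD3E did not exceed 0.14 FPKM in any library. As a check of treatment, the sterol-regulated genes HMGCS1, INSIG1, IDI1 and FDFT1 were lower by at least 1.5-fold with 2.5 μM of either antagonist: HMGCS1, which makes HMG-CoA, had log2 ratios of -2.02 with XY018 in HCC70, -1.87 with XY018 in MDA-MB468 and -2.75 with GSK805.

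The levels of the glycolytic genes spanned more than 2 orders of magnitude in each vehicle library. In HCC70 the order of vehicle FPKM was GAPDH (2388), ALDOA (1402), ENO1 (1178), PKM (728), TPI1 (454), LDHA (259), PGK1 (226), PFKP (66.6), SLC2A1 (46.4) and HK2 (17.8). In the MDA-MB468 vehicle of the XY018 experiment it was GAPDH (2533), ENO1 (775), ALDOA (678), PKM (416), LDHA (239), PGK1 (174), TPI1 (151), PFKP (58.0), SLC2A1 (55.8) and HK2 (9.43). In both lines the enzymes of the lower, energy-yielding phase were thus far more abundant per length than the transporter and the enzymes that trap glucose. Neighbours in these orders such as PFKP and SLC2A1 in MDA-MB468 lie so close that 1 library each cannot place them. In the vehicle of the GSK805 experiment ALDOA came first, with 2411 FPKM, before GAPDH with 1335, and HK2 came last again, with 18.5. Together the 10 genes made up 1.49% of the summed FPKM of the HCC70 vehicle and 1.18% of that of the MDA-MB468 vehicle. With 2.5 μM XY018 this share was 1.51% in HCC70 and 0.899% in MDA-MB468.

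**Figure D1:**
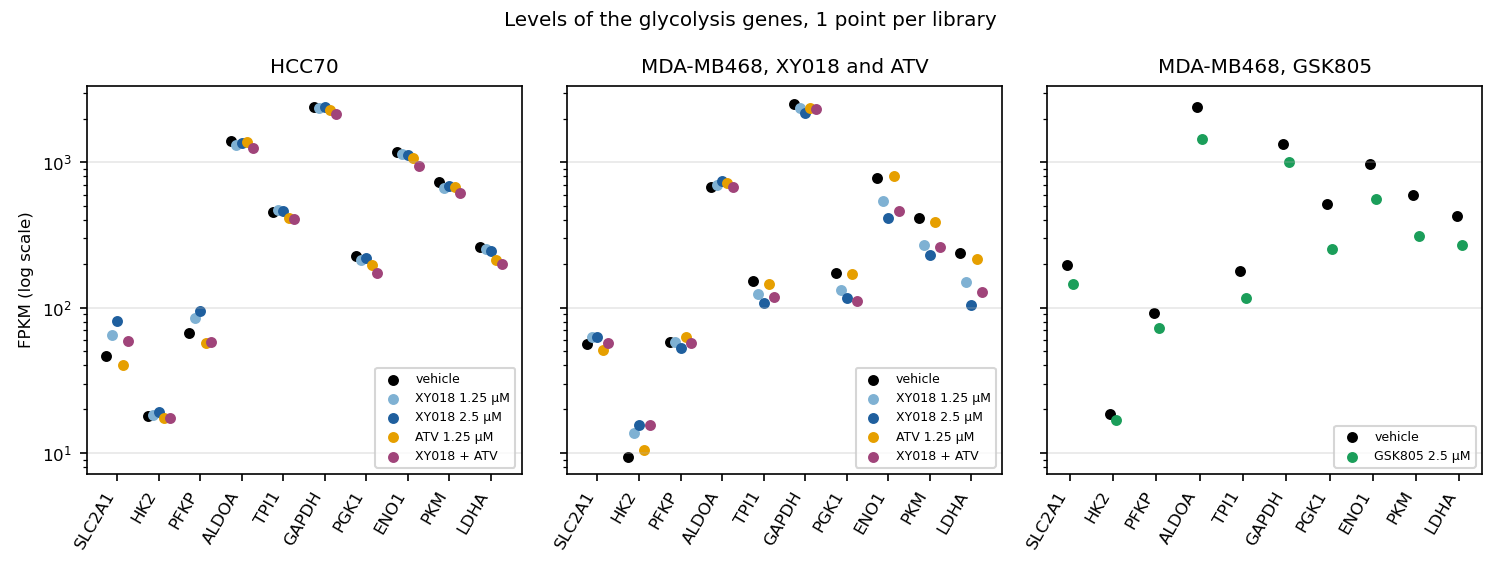
FPKM of the 10 glycolytic genes in each of the 12 libraries, on a log axis, with 1 point per library and 1 panel per deposited table. GAPDH stays near 2388 FPKM across HCC70 libraries, while LDHA, ENO1 and PKM of MDA-MB468 sit lower in the 3 libraries that received XY018.

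The transporter gene had the highest ratios of the members with XY018 in HCC70. SLC2A1, which encodes GLUT1 and lies on the minus strand of chr1:43391024-43424564 (GRCh37), had 46.4 FPKM in vehicle, 64.5 and 80.5 with 1.25 and 2.5 μM XY018, 40.4 with ATV and 58.4 with both compounds. All 3 libraries with XY018 stood above vehicle and the ATV library stood below it. The log2 ratio was 0.48 [0.38, 0.57] at 1.25 μM and 0.80 [0.71, 0.89] at 2.5 μM, the latter a 1.74-fold difference that exceeded the ratio of 98.6% of the 11721 genes compared. SLC2A1 was the single member counted at this dose, 1 of 10 higher against 2.62% of all genes, and none was counted lower against 3.26%. In MDA-MB468 the same gene had 55.8 FPKM in vehicle, 62.5 and 63.2 with XY018, 50.8 with ATV and 56.9 with both, and it had 196 FPKM in vehicle and 146 with GSK805. Its log2 ratio there was 0.18 [0.11, 0.25] with 2.5 μM XY018 and -0.43 [-0.49, -0.37] with GSK805, so the antagonists lay on opposite sides of their vehicles, both within 1.5-fold.

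The hexokinase gene HK2 moved in MDA-MB468 and hardly in HCC70. HK2 phosphorylates glucose at the mitochondrial surface and lies on chr2:75061254-75120486. It had 17.8 FPKM in the HCC70 vehicle and between 17.4 and 19.0 in the 4 treated HCC70 libraries. In MDA-MB468 it had 9.43 FPKM in vehicle, 13.6 and 15.5 with 1.25 and 2.5 μM XY018, 10.5 with ATV and 15.6 with both. The 3 libraries with XY018 were above the other MDA-MB468 libraries of that experiment, with log2 ratios of 0.52 [0.41, 0.65], 0.71 [0.60, 0.83] and 0.72 [0.62, 0.84]. GSK805 did not give this pattern, with 18.5 FPKM in vehicle and 16.8 after treatment, a log2 ratio of -0.13 [-0.28, 0.01]. HK2 was the less abundant hexokinase throughout: its paralog HK1, the constitutive form, had 42.4 FPKM in the HCC70 vehicle and 90.1 in the MDA-MB468 vehicle, and it had 91.9 with 2.5 μM XY018 in MDA-MB468. The HK2 share of HK1 and HK2 was accordingly 9.48% in the MDA-MB468 vehicle and 14.4% with 2.5 μM XY018. In the GSK805 experiment this share went the other way, from 20.2% in vehicle to 14.3% with GSK805, and HK1 had 72.9 and 101 FPKM.

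PFKP, the platelet-type phosphofructokinase, followed SLC2A1 in HCC70. It had 66.6 FPKM in vehicle, 84.7 and 95.03 with XY018, 56.6 with ATV and 58.0 with both compounds. XY018 alone was above vehicle at both doses, and the 2 libraries with ATV were below it. The log2 ratio of 0.51 [0.42, 0.60] at 2.5 μM lay just under the limit of 1.5-fold. PFKP lies on chr10:3108525-3179910. The liver-type paralog PFKL had a log2 ratio of 0.04 at this dose, from 57.9 to 59.6 FPKM, and the PFKP share of PFKP and PFKL went from 53.5% to 61.4%. In MDA-MB468 PFKP had 58.0 FPKM in vehicle, 58.0 and 52.3 with XY018, 62.9 with ATV and 57.4 with both, which left all ratios between -0.15 and 0.12. With GSK805 it had 91.3 FPKM in vehicle and 72.3 after treatment, a ratio of -0.33 [-0.43, -0.24], while the muscle-type PFKM had 15.8 and 29.6 FPKM, a ratio of 0.90.

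ALDOA, the aldolase that cleaves fructose 1,6-bisphosphate, differed between the antagonists and lies on chr16:30075485-30081778. It had 678 FPKM in the MDA-MB468 vehicle, 697 and 740 with XY018, 725 with ATV and 673 with both. In the GSK805 experiment it had 2411 FPKM in vehicle and 1443 after treatment, a log2 ratio of -0.74 [-0.77, -0.71] against 0.13 [0.10, 0.16] with the same concentration of XY018. HCC70 libraries held 1245 to 1402 FPKM, with vehicle the highest. TPI1, which interconverts the trioses and lies on chr12:6976283-6980112, was lower with both antagonists in MDA-MB468, from 151 to 123 and 107 FPKM with the doses of XY018 and from 177 to 117 with GSK805. Its ATV library had 144 FPKM and that with both compounds 119, and HCC70 libraries held 406 to 469. The log2 ratios of TPI1 were -0.49 [-0.57, -0.42] with 2.5 μM XY018 and -0.60 [-0.71, -0.49] with GSK805, and only the latter passed 1.5-fold.

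GAPDH, which oxidizes glyceraldehyde 3-phosphate and is widely used to normalize expression assays, lies on chr12:6643678-6647540 and had small ratios next to other reference genes. It had 2388 FPKM in the HCC70 vehicle, 2355 and 2395 with XY018, 2292 with ATV and 2151 with both. In MDA-MB468 it had 2533 in vehicle, 2366 and 2176 with XY018, 2369 with ATV and 2312 with both, and GSK805 went with 1335 FPKM in vehicle and 1013 after treatment. The log2 ratios at 2.5 μM were 0.00 [-0.02, 0.03] with XY018 in HCC70, -0.22 [-0.24, -0.20] with XY018 in MDA-MB468 and -0.40 [-0.44, -0.36] with GSK805. The cytoskeletal actin gene ACTB, by contrast, had log2 ratios of -0.23, -2.31 and -1.96, and its MDA-MB468 level was 3718 FPKM in vehicle and 751 with 2.5 μM XY018. PPIA, a prolyl isomerase, had a ratio of -0.98 with XY018 in MDA-MB468. Of 13 reference genes, 4 were lower (ACTB, PPIA, TUBB and HPRT1) by at least 1.5-fold there, against 14.5% of all genes. With GSK805 the transferrin receptor gene TFRC had -1.34. Taken relative to GAPDH, the ratio of HMGCS1 was -1.65 with 2.5 μM XY018 in MDA-MB468 and -2.35 with GSK805. ACTB was further below its vehicle than LDHA or any other glycolytic gene in each of these comparisons in MDA-MB468.

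The lower phase of the pathway, from PGK1 to LDHA, carried most of the lower values in MDA-MB468. PGK1 makes the first ATP of the pathway and is annotated at chrX:77166236-77384792. It had 174 FPKM in vehicle, 133 and 116 with XY018, 171 with ATV and 111 with both, and it had 513 in vehicle and 252 with GSK805. The 3 libraries with XY018 stood apart from vehicle and ATV, which lay within 3 FPKM of each other. The log2 ratio of -0.58 [-0.62, -0.55] at 2.5 μM fell just short of the limit and passed it, at -0.64, with the libraries scaled to a common sum of FPKM, which made 4 members lower in place of 3. With both compounds it was -0.65 [-0.69, -0.62]. GSK805 gave -1.02 [-1.06, -0.99], the lowest ratio of any member with this compound. HCC70 libraries held 173 to 226 FPKM of PGK1, with vehicle the highest.

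ENO1, the enolase that forms phosphoenolpyruvate, lies on the minus strand of chr1:8921059-8939249. It had 775 FPKM in vehicle, 544 and 415 with XY018, 810 with ATV and 463 with both, and it had 974 in vehicle and 561 with GSK805. The log2 ratios were -0.51 [-0.54, -0.48] and -0.90 [-0.93, -0.87] with the doses of XY018 and -0.80 [-0.84, -0.75] with GSK805. PKM, the pyruvate kinase on the minus strand of chr15:72491370-72524160, had 416 FPKM in vehicle, 271 and 230 with XY018, 386 with ATV and 262 with both, and it had 592 in vehicle and 312 with GSK805. Its ratios were -0.62 [-0.65, -0.59], -0.86 [-0.90, -0.82] and -0.92 [-0.97, -0.88] in the same order. The gene-level values do not separate the splice forms of PKM. In HCC70 ENO1 had 1178 FPKM in vehicle, 1148 and 1118 with XY018, 1079 with ATV and 940 with both, and PKM had 728, 666, 685, 676 and 611 in the same order. The library with both compounds was thus the lowest of HCC70 for ENO1 and PKM.

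LDHA, on chr11:18416107-18429972, makes lactate from pyruvate and had the lowest ratio of any member with XY018. In MDA-MB468 it had 239 FPKM in vehicle, 149 and 103 with 1.25 and 2.5 μM XY018, 216 with ATV and 129 with both. Its level was 426 FPKM in the vehicle of the GSK805 experiment and 269 after treatment. The log2 ratio was -0.68 [-0.72, -0.63] at 1.25 μM and -1.21 [-1.26, -1.15] at 2.5 μM, or 2.31-fold lower, and only 3.47% of the 11919 genes compared had a lower ratio at the higher dose. GSK805 gave -0.66 [-0.72, -0.61]. HCC70 libraries held 259 FPKM in vehicle, 253 and 244 with XY018, 212 with ATV and 199 with both. LDHB, the heart-type subunit, had 42.1 FPKM in the MDA-MB468 vehicle and 28.2 with 2.5 μM XY018, a log2 ratio of -0.58 that stayed within 1.5-fold, and 4.15 and 4.53 in HCC70.

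**Figure D2:**
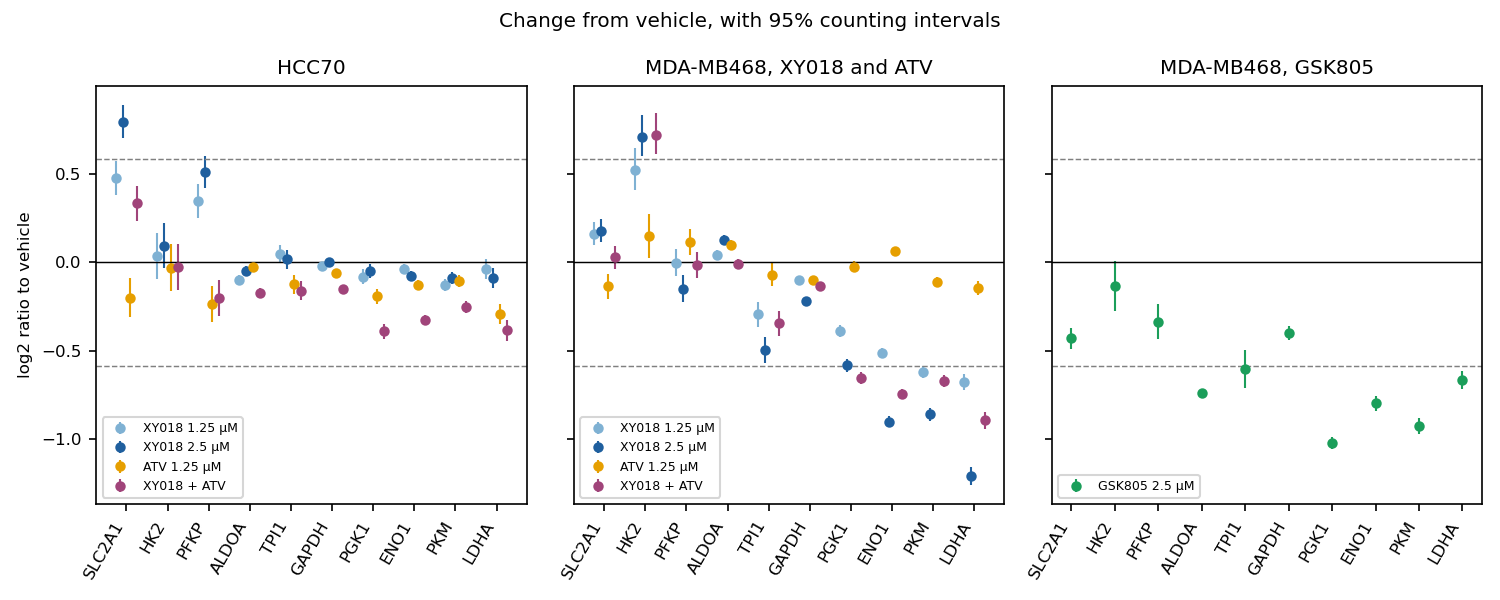
Log2 ratios to vehicle of the 10 genes in the 9 comparisons, in 1 panel per deposited table, with 95% counting intervals as bars and dashed lines at 1.5-fold. The 2.5 μM XY018 point of SLC2A1 is the only one past the line in HCC70, whereas LDHA, ENO1 and PKM pass it downward and HK2 upward with 2.5 μM XY018 in MDA-MB468.

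Counted over the members, MDA-MB468 showed a mixed picture with XY018. At 1.25 μM 2 of 10 members were lower, PKM and LDHA, against 8.38% of 11844 genes, and none was higher against 9.73%. At 2.5 μM 3 were lower, ENO1, PKM and LDHA, against 14.5% of 11919 genes, and 1 was higher, HK2, against 14.1%. With both compounds 4 were lower, PGK1, ENO1, PKM and LDHA, against 12.2%, and HK2 was again higher against 13.1%. With GSK805 6 were lower, ALDOA, TPI1, PGK1, ENO1, PKM and LDHA, against 16.6% of 19951 genes, and none was higher against 17.6%. Among genes at 50 FPKM or above in vehicle, a limit chosen after the values had been seen, 16% were lower with 2.5 μM XY018 and 15.2% with GSK805. Among names listed in all 3 tables, also chosen afterwards, 12.5% were lower with GSK805. The median log2 ratio of the 10 members was -0.20 and -0.36 with the doses of XY018 in MDA-MB468, -0.24 with both compounds and -0.63 with GSK805, beside medians over all genes of 0.01, 0.00, 0.01 and 0.01. Against the vehicle of the XY018 experiment, which comes from a separately normalized table, the median with GSK805 was 0.25, and SLC2A1, HK2, PFKP, ALDOA, PGK1 and LDHA had positive ratios. Against their own vehicles, the intervals of 6, 7, 6 and 9 members lay below 0 with 1.25 μM XY018, 2.5 μM XY018, both compounds and GSK805, and those of 3, 3, 1 and 0 lay above it. Counting intervals are narrow for abundant genes, and no share over all genes is given for these counts. They are therefore not read as particular to the members.

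In HCC70 the members stayed close to vehicle. With 1.25 μM XY018 none was counted in either direction, against 2.64% of 11738 genes lower and 1.93% higher. The median of the members was -0.03 at 1.25 μM and -0.02 at 2.5 μM, and apart from SLC2A1 and PFKP the ratios at 2.5 μM lay between -0.09 and 0.10. ATV left none past 1.5-fold in HCC70, against 1.32% lower and 2.22% higher, but all 10 ratios were below 0, as were those of 5979 of 11742 genes, with a median of -0.13 and the lowest value for LDHA, at -0.29 [-0.35, -0.24]. In MDA-MB468 ATV also left none past the limit, against 0.803% lower and 1.37% higher, with 6 members below and 4 above 0 and a median of -0.05. With both compounds in HCC70 none passed, against 2.93% lower and 4.38% higher, although 9 of 10 ratios were below 0, as were those of 6117 of 11792 genes. PGK1, at -0.39 [-0.43, -0.35], and LDHA, at -0.38 [-0.44, -0.33], were the lowest.

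Some members moved further from vehicle at the higher dose of XY018 and others did not. From 1.25 to 2.5 μM XY018 LDHA had a further log2 ratio of -0.53 in MDA-MB468, ENO1 one of -0.39, PKM one of -0.24, HK2 one of 0.19 and SLC2A1 one of 0.02, and none passed 1.5-fold, against 1.73% of genes lower and 1.03% higher. In HCC70 SLC2A1 had 0.32 and PFKP 0.17 over the same step, while ALDOA (0.05), PGK1 (0.03) and PKM (0.04) were nearer to vehicle at the higher dose, again with none past the limit, against 1.36% lower and 1.17% higher. Adding ATV to 1.25 μM XY018 went with lower values of all 10 members in HCC70, with a median of -0.17 and PFKP lowest at -0.54, and with lower values of 9 in MDA-MB468, where HK2 was at 0.20. Over all genes 50.6% and 53.7% had lower values over these steps. Neither step took a member past 1.5-fold, while 1.96% of genes were lower and 3.75% higher in HCC70 and 1.76% and 2.1% in MDA-MB468. Adding XY018 to ATV gave ENO1 -0.81, LDHA -0.75, PGK1 -0.63 and HK2 0.57 in MDA-MB468, and the first 3 were counted as lower, against 11.1% of genes lower and 11.7% higher. In HCC70 that step gave SLC2A1 0.53, with none past the limit, against 2.54% lower and 2.73% higher. These steps share libraries with the comparisons against vehicle and are not independent of them.

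The response of the members to 2.5 μM XY018 was not the same in the cell lines. The ratio in MDA-MB468 minus that in HCC70 was -1.12 [-1.19, -1.04] for LDHA, -0.83 [-0.87, -0.78] for ENO1, -0.77 [-0.82, -0.72] for PKM, -0.66 [-0.78, -0.54] for PFKP and -0.62 [-0.73, -0.50] for SLC2A1. HK2 lay on the other side, with 0.62 [0.44, 0.79]. The counting interval of this difference was below 0 for 8 members and above 0 for HK2 and ALDOA, and the difference itself could not be tested over cultures. No share over all genes is given for this count either, so it is not read as particular to the members. The line as a whole moved more: 28.6% of genes passed 1.5-fold in either direction in MDA-MB468 and 5.88% in HCC70.

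XY018 and GSK805 were both given to MDA-MB468 at 2.5 μM for 24 h, but in separate experiments with their own vehicles and annotations. All 10 pairs of ratios were compared, as GSK805 minus XY018. The difference was -0.87 [-0.91, -0.83] for ALDOA, -0.85 [-1.03, -0.66] for HK2, -0.61 [-0.70, -0.52] for SLC2A1 and -0.44 [-0.49, -0.39] for PGK1, all lower with GSK805. LDHA, at 0.54 [0.47, 0.62], was lower with XY018. The smallest differences were those of PKM, at -0.07 [-0.12, -0.01], ENO1, at 0.10 [0.05, 0.16], and TPI1, at -0.11 [-0.24, 0.02], the only interval that held 0. The vehicles come from separately normalized tables, which list ALDOA at 678 and 2411 FPKM, and table and culture cannot be told apart there. No adjusted p-value can be given for these pairs, because each rests on 1 library per condition.

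The GSK805 table has an annotation that lists processed pseudogenes beside their parent genes, 81 of them for these members, of which none appears in the other tables. Their summed FPKM came to 81.3% of the GAPDH value in vehicle and 82.9% with GSK805, over 58 entries. It was 86.7% and 79.8% for TPI1, 39.8% and 42.0% for LDHA and 36.3% and 31.2% for HK2. For ENO1 it was 23.7% and 25.1%, for PKM 22.6% and 24.8%, for PGK1 9.70% and 8.45% and for ALDOA 3.57% and 3.55%. Levels of these genes in that table are therefore uncertain in how reads were split. SLC2A1 and PFKP had none. When the entries were added to their parent gene, the ratio of each of the 10 members stayed within its counting interval.

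**Figure D3:**
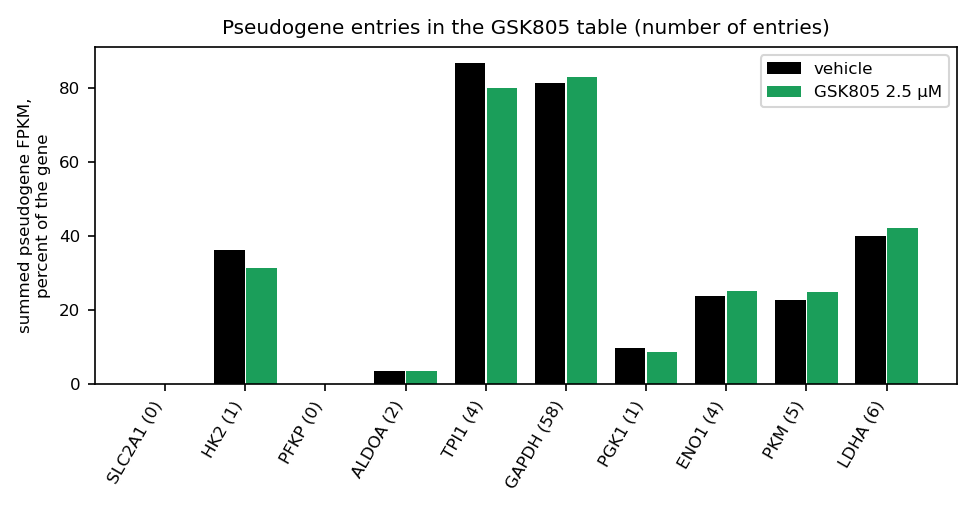
Summed FPKM of the pseudogene entries as a percentage of the parent gene's FPKM, in the vehicle and GSK805 libraries of the GSK805 table. TPI1 and GAPDH have the highest shares, 86.7% and 81.3% in vehicle, and each gene has similar bars in both libraries.

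The mutase and isomerase steps were measured as well. PGAM1, the phosphoglycerate mutase between PGK1 and ENO1, had 109 FPKM in the MDA-MB468 vehicle and 66.7 with 2.5 μM XY018, a log2 ratio of -0.71, and it had -1.03 with GSK805, from 48.4 to 23.7 FPKM. In HCC70 it had 123 FPKM in both libraries. GPI, the isomerase after hexokinase, was at -0.09 in HCC70 and at -0.13 with XY018 and -0.40 with GSK805 in MDA-MB468. Of 23 paralogs and remaining enzymes, 13 were measured with 2.5 μM XY018 in MDA-MB468, of which 3 were higher (PGAM2, ENO2 and GAPDHS) and 1 was lower (PGAM1), with a median of 0.03, while 14.1% of all genes were higher and 14.5% lower. With GSK805 1 of 13 was higher (PFKM) and 5 were lower (PGAM1, PGAM4, ENO2, SLC2A3 and SLC2A4), with a median of -0.29, while 17.6% of all genes were higher and 16.6% lower. ENO2, the neuronal enolase, is a low-level gene here, at 2.67 FPKM in the MDA-MB468 vehicle, and had ratios of 0.74 in HCC70 and 0.78 in MDA-MB468 for XY018 and of -1.04 for GSK805. PGAM2 had 1.03 FPKM in the MDA-MB468 vehicle and 2.24 with 2.5 μM XY018, and SLC2A3, the glucose transporter GLUT3, had 2.10 and 0.51 FPKM with GSK805, a log2 ratio of -1.85 [-2.92, -1.22], so few fragments stand behind both. In the XY018 comparison SLC2A3 was below the filter, at 0.21 FPKM in both libraries.

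Several genes that set the flow into and out of the pathway had different signs in the lines. PFKFB3 makes the phosphofructokinase activator fructose 2,6-bisphosphate. It had 42.3 FPKM in the HCC70 vehicle and 76.7 with 2.5 μM XY018, a log2 ratio of 0.86, but 9.48 and 7.13 in MDA-MB468, a ratio of -0.41, and -0.90 with GSK805. PDP1, which activates pyruvate dehydrogenase, had 1.07 in HCC70, from 31.9 to 66.9 FPKM, and -0.35 and -0.19 in MDA-MB468. MPC1, a subunit of the mitochondrial pyruvate carrier, had 18.5 FPKM in the MDA-MB468 vehicle and 55.7 with XY018, a ratio of 1.59, against -0.53 in HCC70 and -0.50 with GSK805. PDK4, a kinase that inhibits pyruvate dehydrogenase, had positive ratios in all 3 comparisons, at 1.40, 3.37 and 2.71, from vehicle levels of 1.24, 0.07 and 0.12 FPKM, so the size of these ratios depends on the 0.1 that was added. PDHA1, a pyruvate dehydrogenase subunit with 129 FPKM in the vehicle of the GSK805 experiment, had 0.14, -0.24 and -0.33. Over the list of 19, 3 of 18 measured genes were higher (PFKFB3, PDP1 and PDK4) and none was lower in HCC70 at 2.5 μM, against 2.62% and 3.26% of all genes. In MDA-MB468 2 of 18 were higher (PDK4 and MPC1) and none was lower, against 14.1% and 14.5%. With GSK805 1 was higher (PDK4) and 5 were lower (PFKFB3, PFKFB4, BPGM, PDP2 and MPC2), against 17.6% and 16.6%.

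Lactate leaves cells through the SLC16A family. SLC16A1 (MCT1) had 15.9 FPKM in the MDA-MB468 vehicle and 7.82 with 2.5 μM XY018, a log2 ratio of -1.02, and 0.18 with GSK805. SLC16A3 (MCT4), the export form of glycolytic cells, had -0.42 with XY018 and -1.26 with GSK805, from 64.7 to 27.0 FPKM. The antagonists thus shared a sign for SLC16A3 and not for SLC16A1, and in HCC70 the ratios were 0.15 and 0.00. Of 4 measured genes of this list SLC16A1 was the only one past 1.5-fold with XY018 in MDA-MB468 and SLC16A3 the only one with GSK805, beside 14.5% and 16.6% of all genes lower. SLC16A4 had 0.04 and 0.07. BSG, the chaperone of both transporters, had -0.45 with XY018 and -0.28 with GSK805 in MDA-MB468 and 0.05 in HCC70.

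The pentose phosphate pathway branches from glycolysis at glucose 6-phosphate and makes NADPH. Of its 8 measured genes in MDA-MB468, 7 had ratios above 0 at 2.5 μM XY018, with a median of 0.21, and 7 with GSK805, with a median of 0.18. Over all genes 5970 of 11919 and 10072 of 19951 were above 0. None of the 8 passed 1.5-fold. PGD, an NADPH-producing enzyme of the pathway, had 135 FPKM in vehicle and 171 with XY018, a log2 ratio of 0.34, and 0.57 with GSK805. In HCC70 all 8 ratios were below 0 at 2.5 μM, as were 6400 of 11721 over all genes, with a median of -0.11. H6PD, the enzyme of the endoplasmic reticulum, had 0.10 and 0.41. TKT, the transketolase and the most abundant of the list in MDA-MB468, had 0.30 with XY018 and 0.22 with GSK805.

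Of 10 measured genes of gluconeogenesis and glycogen in MDA-MB468, 1 (PYGL) was lower by at least 1.5-fold with XY018, against 14.5% of all genes, and 3 (PC, G6PC3 and PGM2) with GSK805, against 16.6%. Ratios of 7 of the 10 were below 0 for each antagonist, as were those of 5928 of 11919 and 9879 of 19951 genes, and the medians were -0.40 and -0.31. PYGL, the liver-type glycogen phosphorylase, had 2.47 and 0.85 FPKM with XY018, a ratio of -1.44, and 0.14 with GSK805. PC, pyruvate carboxylase, had -0.43 and -0.89, and G6PC3, a glucose 6-phosphatase, -0.37 and -0.73. PYGB, the brain-type form, was the 1 gene of the list counted as higher with each antagonist in MDA-MB468, at 0.64 and 0.61, against 14.1% and 17.6% of all genes. PCK2, the mitochondrial PEP carboxykinase, had 0.69 in HCC70, -0.21 with XY018 in MDA-MB468 and 0.15 with GSK805. UGP2, which makes UDP-glucose, had -0.01, -0.45 and -0.21. FBP1, which opposes phosphofructokinase, and TXNIP, which restrains glucose uptake, are named here because of their levels: they had 80.3 and 71.9 FPKM in the HCC70 vehicle and 0.80 and 0.06 in the MDA-MB468 vehicle, levels from separately normalized tables.

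**Figure D4:**
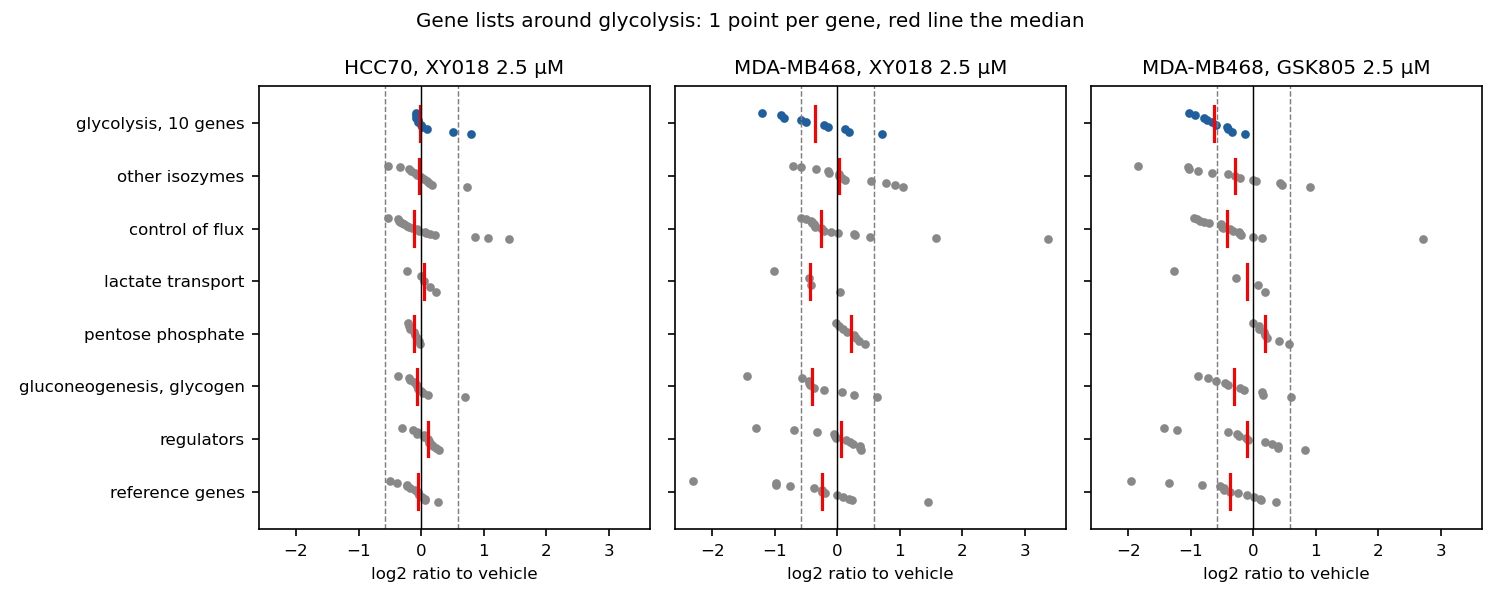
Log2 ratios of the genes of each list with 2.5 μM XY018 in HCC70 and MDA-MB468 and with 2.5 μM GSK805, with 1 point per gene, dashed lines at 1.5-fold and a red line at the median of the list. The median of the members is -0.02, -0.36 and -0.63 in these comparisons, and that of the pentose phosphate genes is -0.11, 0.21 and 0.18.

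The known regulators of the pathway had no common direction. HIF1A, the oxygen-sensitive subunit of HIF-1, had log2 ratios of -0.07 and -0.03 with 2.5 μM XY018 in HCC70 and MDA-MB468 and 0.19 with GSK805, from vehicle levels of 163, 49.5 and 95.9 FPKM. EGLN3, a prolyl hydroxylase that is itself a HIF target, had -0.30, -1.30 and -1.22. MYC had 0.28 in HCC70, -0.68 with XY018 in MDA-MB468 and 0.83 with GSK805, so it stood on opposite sides of vehicle for the antagonists in the same line. MLXIP, a glucose-sensing transcription factor, had 0.24 and 0.25 with XY018 and -1.42 with GSK805. Of the measured regulators none passed 1.5-fold in HCC70, 2 of 12 were lower (EGLN3 and MYC) and none higher with XY018 in MDA-MB468, and 1 was higher (MYC) and 2 were lower (EGLN3 and MLXIP) with GSK805. Over all genes 3.26% were lower and 2.62% higher with 2.5 μM XY018 in HCC70. In MDA-MB468 14.5% were lower and 14.1% higher with XY018 and 16.6% and 17.6% with GSK805. EGLN2, another prolyl hydroxylase, had 0.38 with XY018 and -0.41 with GSK805 in this line.

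Several other hypoxia-responsive genes had opposite signs with the compounds. NDRG1, a stress-induced gene and the most abundant of the list in the vehicle of the GSK805 experiment, had 0.99 with XY018 in HCC70, 1.68 in MDA-MB468 and -0.98 with GSK805, and VEGFA, the angiogenic growth factor, had 0.71, 0.62 and -0.67. CA9, carbonic anhydrase 9 and a much used hypoxia marker, had 0.80, -1.82 and -2.02, and ADM, the vasodilator adrenomedullin, had 0.60, 0.14 and -2.26. P4HA1, a collagen prolyl hydroxylase, had 0.37, -0.90 and -0.24. At 2.5 μM XY018 5 of 8 measured genes of the list were higher in HCC70 (NDRG1, CA9, VEGFA, ADM and BNIP3), and in MDA-MB468 4 of 8 were higher (NDRG1, VEGFA, KDM3A and ANKRD37) and 2 were lower (CA9 and P4HA1). With GSK805 5 of 9 were lower (ADM, CA9, NDRG1, BNIP3 and VEGFA) and none was higher. The shares over all genes were 2.62% higher in HCC70, 14.1% higher and 14.5% lower in MDA-MB468, and 16.6% lower and 17.6% higher with GSK805.

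Genes other than the members were searched for a similar profile, listed genes included. Among 4853 genes at 10 FPKM or above in all vehicles, the 5 with the smallest root mean square difference from the median profile of the members over the 9 comparisons were STIL (0.0452), MYL12B (0.0529), KRT18 (0.0574), NDUFA13 (0.0700) and SMIM7 (0.0723). STIL is a centriole assembly factor, MYL12B a myosin light chain, KRT18 a keratin of the epithelial marker list and NDUFA13 a subunit of respiratory complex I. The median profile hides the spread among members: TPI1 differed from it by 0.074 and HK2 by 0.569.

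The composition of the MDA-MB468 libraries moved with XY018 and with GSK805. MTRNR2L2, a nuclear copy related to mitochondrial ribosomal RNA, had 3685 FPKM in vehicle, 7208 and 8119 with the doses of XY018, 4243 with ATV and 6805 with both, and the 10 most abundant genes took 6.72% of summed FPKM in vehicle and 10.6% with 2.5 μM XY018. In HCC70 MTRNR2L2 had 13666 FPKM in vehicle and 14186 with 2.5 μM XY018. In the GSK805 pair it had 184 FPKM in vehicle and 418 after treatment, and MT-RNR2 had 5556 and 11860. The 10 most abundant genes took 46.5% and 50.1% of summed FPKM there. Rescaling the libraries to a common sum of FPKM moved the median ratio of the glycolytic members from -0.36 to -0.41 with 2.5 μM XY018 in MDA-MB468, and leaving the MTRNR2L entries out of that sum gave -0.38. Lineage markers moved as well. All 8 epithelial markers were below vehicle with 2.5 μM XY018 in MDA-MB468 and 4 of them were lower by at least 1.5-fold, against 14.5% of all genes, with a summed level of 2894 FPKM in vehicle and 1853 after treatment. KRT8 was at 918 and 468 FPKM and KRT14 at 4.63 and 0.45. The 6 immune and stromal markers summed to 7.42 and 11.4 FPKM, with COL1A1 the highest at 4.96 and 8.21 and CD3E and COL1A2 at 0 in vehicle. With GSK805 the epithelial sum was 2911 and 2084 FPKM and the immune and stromal sum 10.4 and 17.2, while in HCC70 with 2.5 μM XY018 they were 1891 and 1432 and 14.1 and 11.9. These epithelial sums hide mixed signs, as 2 of the 8 epithelial markers were above vehicle with GSK805 and 3 of 8 in HCC70. ESR1 was at 1.77 FPKM in vehicle and 5.67 with GSK805, 3.08-fold higher, and ERBB2, the HER2 gene, at 35.2 and 57.7, 1.64-fold higher. Over all genes 17.6% were higher with GSK805. With 2.5 μM XY018 in MDA-MB468 ESR1 was below the filter, at 0.48 and 0.43 FPKM, and ERBB2 had a log2 ratio of 0.45, within 1.5-fold. The part of these shifts in the glycolytic ratios was not tested.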

How the data were processed

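RNA of 12 libraries was analysed, 1 per condition of each experiment. Per the submitters' processing notes and the study's methods, the authors used BWA, Bowtie and Cufflinks with the genome build GRCh37 (hg19). They deposited gene-level FPKM in 3 tables, each normalized on its own, and the headers name no unit. The annotation of the GSK805 table is not given in the sources used here. The versions used for the RNA libraries are not given there either.

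Ratios were taken within a table, as log2 of FPKM plus 0.1 in the treated library over the same in its vehicle. A gene entered a comparison when either library had 1 FPKM or more, and 1.5-fold was the limit for counting a gene. A symbol with more than one row kept the row of highest mean FPKM. With 1 library per condition, line and experiment no test was run. Fragments per gene were estimated from FPKM, GENCODE transcript length and the library's depth, which was read from the spacing of low FPKM values, so all intervals are approximate. Intervals of a ratio are Clopper-Pearson at 95%, and those of a difference of ratios add the counting errors of 4 libraries. They cover counting error only. The depth and ratio steps were tested on simulated data. Gene coordinates come from GENCODE on GRCh37. Promoter windows come from the RefSeq table, which is on GRCh38, and were placed on GRCh37 by exact match, which succeeded for 10 of 10 members.

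The members and the 12 other gene lists were chosen with earlier results of these data known. Single values of some listed genes are not reported here. The text names all 10 members, up to 4 genes of each other list by largest absolute ratio over the comparisons of 2.5 μM XY018 and GSK805, the gene of highest vehicle level, paralogs of members, and the 5 genes with the profile nearest to the members' median. A few others were named after their values had been seen: those that make up a small count, and EGFR, CD3E, VEGFA, PYGB, FBP1 and TXNIP. Alternatives were pseudocounts of 1 and 0.01, no filter and a filter at 5 FPKM, limits of 1.2-fold and 2-fold, rows of one symbol summed, ratios centred on the median of all genes, a common sum of FPKM, and the other vehicle for GSK805. Added after seeing the data were a common sum without the MTRNR2L rows, pseudogene rows added to their gene, and backgrounds restricted to genes at 50 FPKM or above or to names in all 3 tables. Scripts ran in Python 3.11.15 with pandas 2.3.3, numpy 2.4.6, matplotlib 3.10.9 and scipy 1.17.1.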

Additional observations from a re-analysis of the deposited data

Results flagged for a closer look

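Of the 106 listed genes measured in every XY018 comparison of both cell lines, 20 had every XY018 library of one line above vehicle and every one of the other line below it. Over all 10749 genes measured in these comparisons the same was true of 19.1%, so the count among listed genes is near the background. The differences between the lines were not tested, as each condition has 1 library per line, and no explanation was examined. None of the 10 glycolytic members was among them. Values are the log2 ratio in MDA-MB468 minus that in HCC70 at 2.5 μM XY018.

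The ratio was lower in MDA-MB468 for 8 genes. PFKFB3, which makes the activator of phosphofructokinase, had -1.26, and PDP1, a phosphatase that activates pyruvate dehydrogenase, had -1.41. The lactate exporter SLC16A3 had -0.56, the mitochondrial PEP carboxykinase PCK2 had -0.90 and glycogen synthase GYS1 had -0.56. MYC had -0.97, P4HA1 had -1.27 and the reference gene GUSB had -0.26.

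It was higher in MDA-MB468 for 12 genes. MPC1, a subunit of the mitochondrial pyruvate carrier, had 2.11, PDHX of the pyruvate dehydrogenase complex 0.80 and the phosphatase PDP2 0.51. The pentose phosphate genes PGD, TKT, RPE and TALDO1 had 0.54, 0.40, 0.36 and 0.15. Of the glycogen genes, PGM1 had 0.46 and GBE1 0.16. The transporter SLC2A12 had 0.60, the receptor gene ERBB2 0.46 and the reference gene RPLP0 0.27.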

How the results depend on the processing

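No paired analysis was possible because each condition has a single library in its experiment and the labels give no replicate numbers, and no replicate could be left out. Ratios of the 10 members moved by less than their counting intervals under both other pseudocounts, both other filters, summed rows and added pseudogene rows. The count of members past the limit depended on the limit. At 1.2-fold it was 2 for 1.25 μM and 2 for 2.5 μM XY018 in HCC70, 1 for ATV and 4 for both compounds there, against 21.3%, 25%, 22.5% and 33.7% of all genes, and in MDA-MB468 it was 6 for 1.25 μM XY018, 6 for 2.5 μM XY018, 0 for ATV, 6 for both compounds and 9 for GSK805, against 50.5%, 60.8%, 11.5%, 57.7% and 64%. At 2-fold it was 0 for 2.5 μM XY018 in HCC70, 0 for 1.25 μM XY018, 1 for 2.5 μM XY018 (LDHA) and 0 for both compounds in MDA-MB468, and 1 for GSK805 (PGK1), against 1.63%, 5.34%, 10.7%, 9.16% and 17.7%. With ratios centred on the median of all genes, 1 single ratio of a member moved by more than its counting interval. With a common sum of FPKM 28 did, and without the MTRNR2L rows in that sum 12 did. With the common sum the median of the members was -0.41 for 2.5 μM XY018 and -0.29 for both compounds in MDA-MB468 and -0.71 for GSK805. Without the MTRNR2L rows it was 0.015 for 2.5 μM XY018 in HCC70. With either sum PGK1 passed 1.5-fold for 2.5 μM XY018 in MDA-MB468, at -0.64 and -0.60, so that 5 members passed in place of 4. Against the vehicle of the XY018 experiment, from a separately normalized table, the median with GSK805 was 0.25, and 6 of 10 ratios changed sign, those of ALDOA (1.09), PGK1 (0.54) and LDHA (0.17), which had been past 1.5-fold, and of SLC2A1 (1.39), HK2 (0.83) and PFKP (0.32), which had not. The cause was not tested. The GSK805 ratios therefore rest on 1 vehicle library. Counting error limits low genes such as PGAM2 and PDK4, and the spread between cultures, with a single culture per condition of each experiment, is unknown.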
